A study of Mus musculus with 12 samples.

Results

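Aminoacyl-tRNA synthetases are the enzymes that load each tRNA with its amino acid, and 36 genes for them were examined in the transcriptome of mouse gastruloids. They were found by name among 38911 genes: the amino acid letter followed by "ars", with or without a number, together with *Farsa*, *Farsb*, *Ears2*, *Fars2* and *Pars2*. Of these, 20 encode the enzymes of the cytosol and 16, whose names end in 2, those of mitochondria. *Gars* and *Kars* each make both forms from the same gene and were counted with the cytosolic enzymes.

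Gastruloids are aggregates of embryonic stem (ES) cells that elongate and form the germ layers in culture, and here they were grown from E14TG2a, a mouse ES cell line deficient in *Hprt*, with 200 cells plated per gastruloid. In every group the ES cells had been kept in 2iLIF before plating, and the gastruloids had received the Wnt agonist CHIR on day 2. The conditions were set from day 3 to day 4, when RNA was taken: 1× glucose (21.25 mM, the control), 0× glucose (0 mM), 3× glucose (63.75 mM), and 5 mM 2-deoxy-D-glucose (2-DG) in 1× glucose. 2-DG is a glucose analog that is phosphorylated but not carried further through glycolysis, and it also competes with mannose in protein glycosylation. Each condition had 3 libraries of polyA RNA, 1 from each of ES cell passages 13, 15 and 16. Each library pooled gastruloids of 1 condition and 1 passage, and the study's methods place treated and control gastruloids on shared plates. All came from 1 cell line, so that p-values of the main fit, which has no passage term, measure the spread between passages of that line. Those of a fit that pairs the libraries of a passage measure the spread left once differences shared by a passage are taken out.

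Each synthetase recognises 1 amino acid and the tRNAs that carry it, except *Eprs*, which joins the enzymes for glutamate and proline. The enzymes fall into class I and class II by the fold of their catalytic domain, and 8 of the cytosolic enzymes sit in the multisynthetase complex around the scaffold proteins AIMP1, AIMP2 and AIMP3 (gene *Eef1e1*). When uncharged tRNA or unfolded protein in the endoplasmic reticulum leads to phosphorylation of the initiation factor eIF2α, the transcription factor ATF4 is translated, and many cytosolic synthetase genes are among its known targets. The mitochondrial enzymes are encoded in the nucleus and imported, and they serve the translation of the proteins encoded by mitochondrial DNA.

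The promoters are shown first, since ATF4 and its partners of the C/EBP family bind a composite element that reads TGATGNAA. In RefSeq promoters of GRCm38.p6 (250 bases before to 50 after a transcript start, both strands searched), 27 of the 36 genes had an entry. The element was found in 5 of these 27, all of them among the 13 cytosolic genes with an entry and none among the 14 mitochondrial genes. It was present in 4.51% of all 27025 genes of the table (3.97% of its 32851 promoters). The 5 promoters are given 5′ to 3′ on the gene's own strand from 130 bases before to 20 after the start, with the element in capitals (as its reverse complement in all but *Yars*).
Aars (chr8:111033712-111033862, + strand): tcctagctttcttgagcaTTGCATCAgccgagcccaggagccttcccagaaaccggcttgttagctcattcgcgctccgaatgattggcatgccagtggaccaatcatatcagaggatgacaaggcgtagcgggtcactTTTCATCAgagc
Gars (chr6:55037871-55038021, + strand): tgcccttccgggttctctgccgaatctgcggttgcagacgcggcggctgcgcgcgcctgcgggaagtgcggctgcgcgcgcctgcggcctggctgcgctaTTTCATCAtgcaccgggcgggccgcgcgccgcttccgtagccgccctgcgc
Iars (chr13:49682000-49682150, + strand): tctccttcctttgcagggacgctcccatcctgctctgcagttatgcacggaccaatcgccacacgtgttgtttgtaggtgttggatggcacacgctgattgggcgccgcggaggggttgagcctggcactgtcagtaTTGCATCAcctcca
Tars (chr15:11399638-11399788, - strand): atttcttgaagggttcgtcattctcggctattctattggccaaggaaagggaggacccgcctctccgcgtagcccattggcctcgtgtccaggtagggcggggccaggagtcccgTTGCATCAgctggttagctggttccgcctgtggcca
Yars (chr4:129189773-129189923, + strand): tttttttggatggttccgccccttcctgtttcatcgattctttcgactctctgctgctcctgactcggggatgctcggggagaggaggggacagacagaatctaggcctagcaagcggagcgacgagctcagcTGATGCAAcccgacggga
Counted with the first transcribed base as 0, the element began at -112 and 9 in *Aars*, at -30 in *Gars*, at 7 in *Iars*, at -15 in *Tars* and at 3 in *Yars*. All 5 lay within 112 bases of the transcript start used. In *Aars* and *Yars* that start lies inside the RefSeq span of the gene, so other transcripts may begin elsewhere. The promoters of *Aars*, *Iars* and *Tars* also held the E-box CACGTG, as did those of *Farsb* and *Ears2*, against 8.09% of all genes (7.15% of promoters). No match of the E-box overlapped a match of the ATF4 element.

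A different motif was found in the other compartment. The core of the element bound by NRF1, an activator of nuclear genes for mitochondrial proteins, reads GCATGCG, and it was found in 5 of the 14 mitochondrial genes with an entry, in none of the 13 cytosolic ones and in 4.01% of all genes (3.58% of promoters). These are given from 80 bases before the start to the base before it, with the motif in capitals.
Nars2 (chr7:96951447-96951526, + strand): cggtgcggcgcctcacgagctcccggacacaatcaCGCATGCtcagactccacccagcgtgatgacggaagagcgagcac
Rars2 (chr4:34614877-34614956, + strand): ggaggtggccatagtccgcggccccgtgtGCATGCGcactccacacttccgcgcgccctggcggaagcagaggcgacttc
Vars2 (chr17:35667593-35667672, - strand): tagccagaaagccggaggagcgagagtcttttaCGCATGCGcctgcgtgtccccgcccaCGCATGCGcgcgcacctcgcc
Wars2 (chr3:99141010-99141089, + strand): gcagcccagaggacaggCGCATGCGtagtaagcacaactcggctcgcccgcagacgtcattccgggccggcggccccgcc
Yars2 (chr16:16302885-16302964, + strand): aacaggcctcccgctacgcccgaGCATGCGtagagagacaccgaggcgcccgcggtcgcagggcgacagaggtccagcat
In *Vars2* and *Wars2* the capitals hold the motif on both strands, 1 base apart, and *Vars2* had 4 matches in all. The motif began between -63 and -20 in the 5 genes, counted from the transcript start used. In *Nars2*, *Vars2* and *Wars2* that start also lies inside the RefSeq span of the gene. A match of letters is a description of the sequence and not a measured binding site.

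All 36 genes were expressed in every library. The lowest count was 324, for *Fars2*, and the highest 21849, for *Eprs*. Together they took 0.519% to 0.564% of a library's counts, at totals of 31902471 to 45956080 counts per library. In 1× glucose, per kilobase of transcript, the cytosolic enzymes ranged from 33.6 CPM (counts scaled by library size) per kb for *Cars* to 216 for *Kars*, with a median of 70.1. The mitochondrial enzymes ranged from 5.04 CPM per kb for *Nars2* to 34.0 for *Yars2*, with a median of 14.5. The ranges met only at their ends: *Yars2* and *Rars2* (33.7 ± 3.30, SD, n = 3) lay as high as *Cars* (33.6 ± 2.01), within their spread.

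Among the cytosolic enzymes, *Kars* (216 ± 5.35 CPM per kb), *Gars* (125 ± 9.64) and *Rars* (117 ± 3.97) stood at the top in 1× glucose. *Gars* and *Rars* did not differ beyond their spread. The members of the multisynthetase complex did not share a level, from *Mars1* at 43.8 ± 0.583 to *Kars*. At the low end of the mitochondrial enzymes, *Nars2* (5.04 ± 0.528), *Wars2* (5.30 ± 0.0868) and *Fars2* (5.51 ± 1.02) could not be ranked.

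2-DG against 1× glucose asked how the inhibitor changed these genes in the same glucose. Of the 36 genes, 9 passed the test (25%), against 17.6% of all 16966 genes tested. Of them, 6 rose, against 9.12% of all genes in this direction: *Yars*, *Sars*, *Nars* and *Iars* of the cytosol, and *Wars2* and *Sars2* of mitochondria. Another 3 fell, against 8.51% of all genes: *Kars* and *Farsa* of the cytosol, and *Ears2* of mitochondria. The changes were small, from -0.31 to 0.36 on the log2 scale, and neither compartment moved as a whole: the median log2 fold change was -0.01 for the cytosolic and -0.03 for the mitochondrial enzymes, against 0.0023 for all genes. Without *Gars* and *Kars* the cytosolic median was also -0.01.

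The share called depended on how the passages were treated. When the passage entered the fit as a block, which pairs the libraries of a passage, 21 of the 36 genes passed (12 higher, 9 lower), against 41.3% of all genes. The 12 added were *Cars*, *Gars*, *Qars*, *Wars* and *Farsb* of the cytosol and *Cars2*, *Fars2*, *Lars2*, *Pars2*, *Rars2*, *Tars2* and *Vars2* of mitochondria. Counted without a model, the 3 libraries in 2-DG lay wholly above or below those in 1× glucose for 15 of the 36 genes, against 35.4% of all genes.

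**Figure D1:**
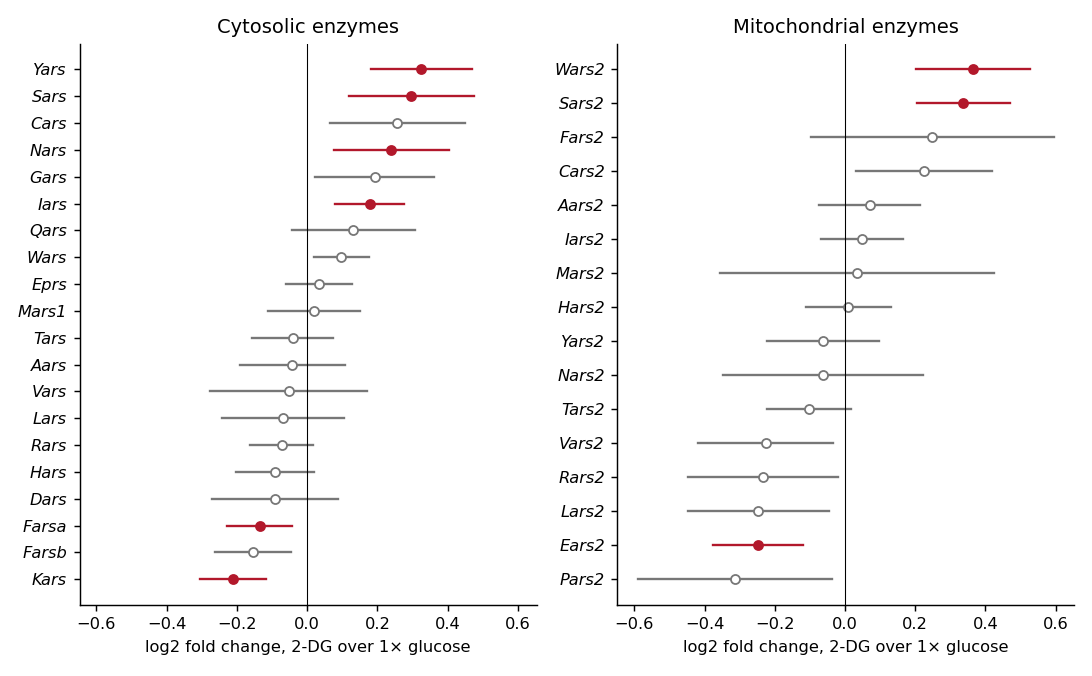
Log2 fold change of each of the 36 synthetase genes in 2-DG over 1× glucose (x axis), with its 95% confidence interval (line), for cytosolic enzymes (left) and mitochondrial enzymes (right). Filled red points passed edgeR's test at an adjusted p of 0.05 and open grey points did not: 4 cytosolic and 2 mitochondrial genes lie above 0 in red, with 2 cytosolic and 1 mitochondrial gene below it.

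*Yars*, the tyrosine enzyme (chr4:129189734-129219240, GRCm38.p6), rose most among the cytosolic genes. In passages 13, 15 and 16 it stood at 126.6, 115.7 and 115.3 CPM in 1× glucose and at 163.9, 148.2 and 136.0 CPM in 2-DG. Every 2-DG library lay above every 1× library. On the log2 scale it rose by 0.33 (SE 0.066, edgeR's quasi-likelihood test, adjusted p = 0.0079), a rise of 25.3%. It was the only one of the 9 genes to pass under each of the 12 alternatives tried, including each omission of a library and the count of its most abundant transcript alone. *Yars* is 1 of the 5 genes with the ATF4 element.

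*Sars*, the serine enzyme, also charges the tRNA that goes on to carry selenocysteine. It stood at 191.0, 173.6 and 173.0 CPM in 1× glucose and at 252.8, 207.6 and 200.4 CPM in 2-DG. The groups did not overlap, and the 2-DG library of passage 13 was the highest by far. Its log2 fold change was 0.30 (SE 0.081, edgeR, adjusted p = 0.030, or 0.0011 with the passage as a block). Without that library it was 0.18 and no longer passed (edgeR, adjusted p = 0.076), and the call was also lost without the 1× library of passage 15 (0.27, adjusted p = 0.11) or of passage 16 (0.27, adjusted p = 0.090).

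*Nars*, the asparagine enzyme, stood at 274.4, 248.2 and 238.8 CPM in 1× glucose and at 331.8, 291.1 and 276.4 CPM in 2-DG. The lowest 2-DG library barely cleared the highest 1× library. Its log2 fold change was 0.24 (SE 0.074, edgeR, adjusted p = 0.048). *Iars*, the isoleucine enzyme of the multisynthetase complex, was even in 1× glucose, at 311.7, 314.1 and 313.2 CPM, and stood at 369.6, 354.8 and 338.0 CPM in 2-DG. All 3 passages were higher, by 0.18 on the log2 scale (SE 0.045, edgeR, adjusted p = 0.021). With the passage as a block, edgeR's adjusted p was 0.0010 for *Nars* and 0.0027 for *Iars*. Without the block, both calls were fragile when 1 library was left out. *Nars* lost its call without the 1× library of passage 15 or 16 or the 2-DG library of passage 13 or 15 (edgeR, adjusted p of 0.094 to 0.17, log2 fold changes of 0.16 to 0.26, the lowest without the 2-DG library of passage 13). *Iars* kept its call without the 2-DG library of passage 16 and lost it without any other (adjusted p of 0.052 to 0.079, log2 fold changes of 0.14 to 0.18).

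*Kars*, the lysine enzyme (chr8:111993439-112011354), fell, and it is the most abundant synthetase per kilobase. It stood at 445.4, 429.3 and 425.1 CPM in 1× glucose and at 372.3, 365.2 and 384.9 CPM in 2-DG. All 2-DG libraries lay well below the lowest 1× library. The log2 fold change was -0.21 (SE 0.042, edgeR, adjusted p = 0.0076), a fall of 13.7%, and the call held in each fit that left out a library. With its most abundant transcript alone *Kars* did not pass (edgeR, adjusted p = 0.078). *Farsa*, the catalytic α subunit of the phenylalanine enzyme, stood at 126.1, 125.4 and 129.3 CPM in 1× glucose and at 113.7, 116.0 and 117.1 CPM in 2-DG, apart but close. Its log2 fold change of -0.14 (SE 0.042, edgeR, adjusted p = 0.049) lay at the threshold. Its call was lost whenever any 1 of the 6 libraries was left out of the fit without the block (adjusted p of 0.085 to 0.13). With the passage as a block and all libraries, edgeR's adjusted p for *Farsa* was 0.011. Its partner *Farsb*, the β subunit, had a log2 fold change of -0.15 (SE 0.049) and an adjusted p of 0.053 from edgeR, or 0.0082 with the passage as a block.

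*Gars*, the glycine enzyme and the other gene of both compartments, took the opposite course to *Kars*. It stood at 271.6, 301.4 and 316.7 CPM in 1× glucose and at 325.7, 342.1 and 348.9 CPM in 2-DG. The groups did not overlap, and in both conditions the library of passage 13 was the lowest. The log2 fold change was 0.19 (SE 0.077), which gave an adjusted p of 0.11 by edgeR and of 0.00079 with the passage as a block. *Gars* has a single RefSeq transcript in these files, so the forms for the cytosol and for mitochondria could not be told apart.

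The cytosolic genes with the smallest changes were both members of the complex. *Eprs*, with 468.7 to 491.8 CPM in 1× glucose and 479.9 to 501.0 CPM in 2-DG, had a log2 fold change of 0.03 (95% interval -0.06 to 0.13). *Mars1*, the methionine enzyme, had 127.0 to 130.5 CPM in 1× glucose and 122.2 to 136.4 CPM in 2-DG, with a log2 fold change of 0.02 (-0.11 to 0.15). In both the libraries of the groups overlapped. Of the 8 enzymes of the complex 2 passed, in opposite directions, and of the 12 cytosolic enzymes outside it 4 passed, against 17.6% of all genes. With the passage as a block these counts were 3 and 8, against 41.3% of all genes, and the difference between them was not tested. The 3 scaffold genes did not pass: the log2 fold change was 0.07 for *Aimp1*, -0.08 for *Aimp2* and -0.17 for *Eef1e1*, the last with an adjusted p of 0.10 by edgeR and of 0.017 with the passage as a block.

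**Figure D2:**
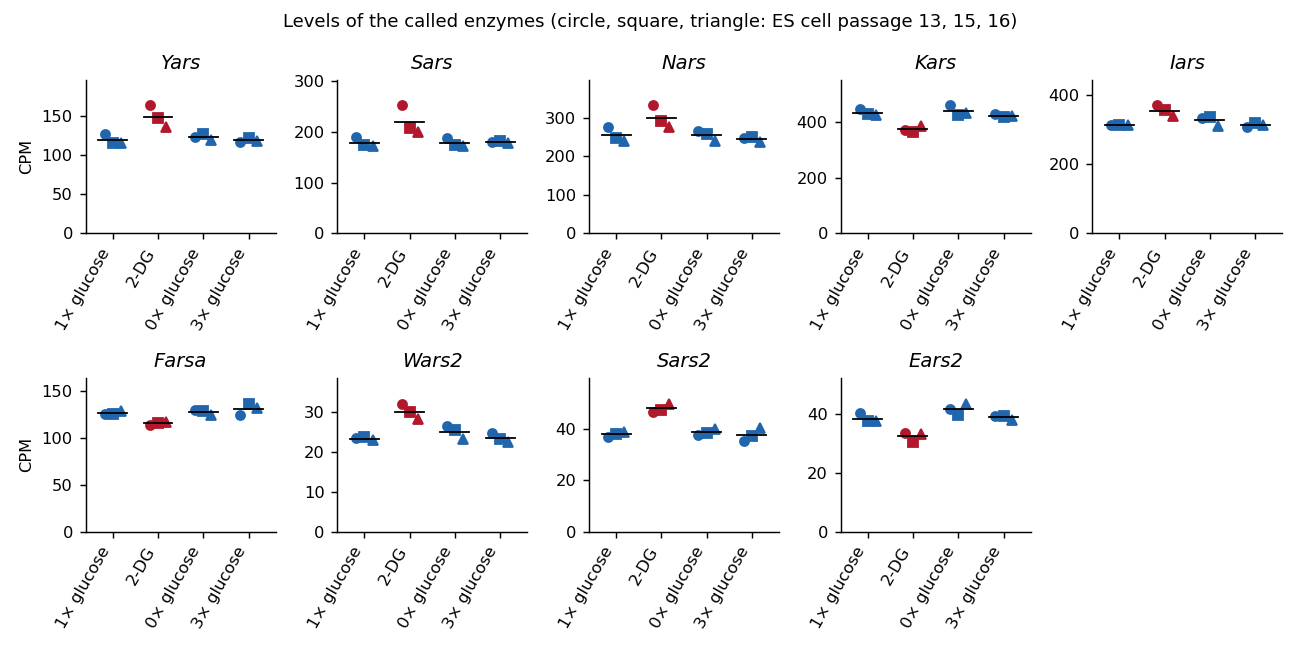
Levels in CPM (y axis, from 0) of the 9 synthetase genes called in 2-DG against 1× glucose, in the 12 libraries by condition (x axis). Circles, squares and triangles are ES cell passages 13, 15 and 16, red marks 2-DG, and the bar is the mean of 3 libraries; the 2-DG libraries stand apart from the 1× libraries in each panel, whereas the 0× and 3× libraries lie near the 1× level.

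Of the mitochondrial enzymes described here, *Ears2* fell. This glutamate enzyme, which also charges the mitochondrial glutamine tRNA before its conversion, stood at 40.3, 37.5 and 37.5 CPM in 1× glucose and at 33.5, 30.5 and 33.1 CPM in 2-DG, lower in all 3 passages. Its log2 fold change was -0.25 (SE 0.058, edgeR, adjusted p = 0.015, or 0.0018 with the passage as a block). Without the block, it lost the call without the 1× library of passage 13 (-0.21, adjusted p = 0.052) or the 2-DG library of passage 15 (-0.21, adjusted p = 0.064).

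*Wars2*, the tryptophan enzyme (chr3:99140107-99221230), rose. It stood at 23.5, 23.7 and 22.9 CPM in 1× glucose and at 32.1, 30.0 and 28.2 CPM in 2-DG. The 1× libraries were within 1 CPM of each other and all 2-DG libraries were higher. This made a log2 fold change of 0.36 (SE 0.073, edgeR, adjusted p = 0.0076), a rise of 28.8%. *Wars2* is 1 of the 5 genes with the NRF1 core; none of the other 4 passed in this comparison, though *Rars2* and *Vars2* passed as lower with the passage as a block.

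*Sars2*, the serine enzyme (chr7:28741957-28753879), stood at 36.6, 38.04 and 38.9 CPM in 1× glucose and at 46.4, 47.3 and 49.7 CPM in 2-DG. The groups did not overlap. The log2 fold change was 0.34 (SE 0.060, edgeR, adjusted p = 0.0043). The calls of *Wars2* and *Sars2* held in all 6 fits that left out a library. Like every call in this comparison except that of *Yars*, they rest on the sum over transcripts. With the most abundant transcript alone, *Sars2* had a log2 fold change of -0.28 and *Wars2* of 1.15, and neither passed. That transcript held 51.8% of the counts of *Sars2* and 44.6% of those of *Wars2*.

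The smallest changes among mitochondrial enzymes were those of *Hars2*, the histidine enzyme, and *Mars2*, the methionine enzyme. *Hars2* ranged from 39.1 to 40.7 CPM in 1× glucose and from 39.1 to 42.7 CPM in 2-DG, with a log2 fold change of 0.01 (95% interval -0.11 to 0.13). *Mars2* stood at 18.4, 27.4 and 23.5 CPM in 1× glucose and at 19.9, 28.5 and 22.6 CPM in 2-DG. The libraries of a passage were alike in both conditions, and the log2 fold change was 0.04 (-0.36 to 0.43).

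Compared library by library, the distance between the compartments differed little. The mean log2 CPM of the cytosolic genes exceeded that of the mitochondrial genes by 2.41 to 2.46 in the 1× libraries and by 2.48 to 2.50 in the 2-DG libraries. Every 2-DG library lay above every 1× library, but the 3× libraries ranged from 2.38 to 2.51 and overlapped both. The summed level of the cytosolic genes was 4497 to 4582 CPM in 1× glucose and 4533 to 4807 CPM in 2-DG, and that of the mitochondrial genes 719.3 to 761.8 and 704 to 748 CPM. Both sums overlapped between the conditions.

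Enzymes for the same amino acid moved in the same direction in some cases and not in others. Of 17 combinations of a cytosolic with a mitochondrial enzyme, 9 had log2 fold changes of the same sign in 2-DG and 8 of opposite sign. Serine was the only amino acid with both enzymes called, *Sars* at 0.30 and *Sars2* at 0.34. For cysteine both enzymes passed only with the passage as a block, *Cars* at 0.26 (adjusted p = 0.067 by edgeR without it and 0.0071 with it) and *Cars2* at 0.22 (0.10 and 0.0057). For tryptophan, *Wars* at 0.10 (0.085 and 0.024) joined *Wars2* at 0.36 in the blocked fit. For phenylalanine the signs differed: *Farsa* stood at -0.14 and *Farsb* at -0.15, whereas *Fars2* had a log2 fold change of 0.25 (0.315 and 0.019). For tyrosine, *Yars* rose and *Yars2* stood at -0.06, and for asparagine, *Nars* rose and *Nars2* also stood at -0.06, neither mitochondrial gene passing in either fit.

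**Figure D3:**
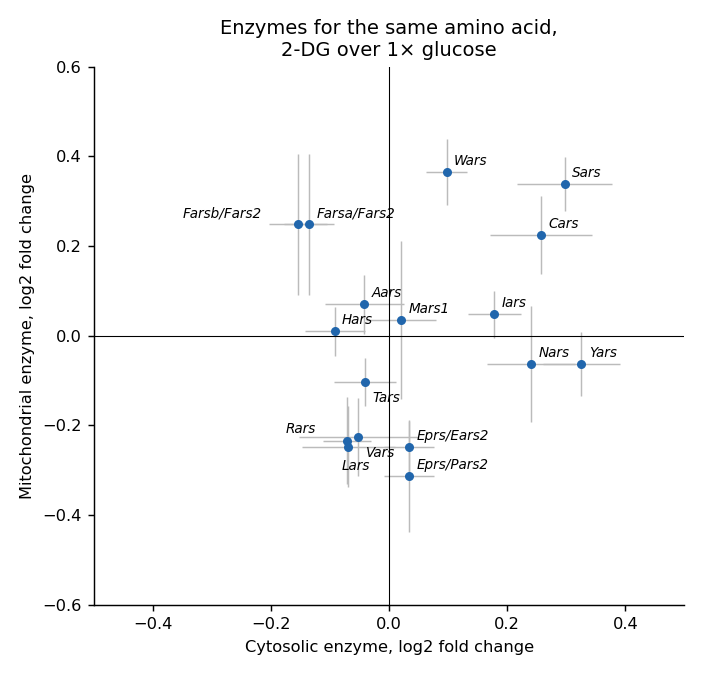
Log2 fold change in 2-DG over 1× glucose of the cytosolic enzyme (x axis) and of the mitochondrial enzyme for the same amino acid (y axis), with standard errors (grey lines), labelled by the cytosolic gene or by both names where they differ. Of the 17 combinations 9 lie in the quadrants of equal sign, with *Sars* and *Cars* at the upper right, and *Nars* and *Yars* lie to the right of 0 with their mitochondrial partners slightly below it.

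Glucose itself left no call. In 0× against 1× glucose, 0 of the 36 genes passed, against 0.0118% of all genes (2 genes), and none reached an unadjusted p of 0.05 in edgeR without the block. The log2 fold changes lay between -0.15 (*Cars2*) and 0.11 (*Ears2* and *Vars*), and the widest 95% intervals reached -0.46 and 0.34. In 3× against 1× glucose, 0 of the 36 genes and 0% of all genes passed, and none of the 36 reached an unadjusted p of 0.05 without the block. The log2 fold changes lay between -0.17 (*Pars2*) and 0.09 (*Vars*), with intervals reaching -0.44 and 0.47. With the passage as a block the lowest adjusted p among the 36 genes was 0.45 in 0× and 0.905 in 3× glucose, and DESeq2 also called none. Over all genes, 306 in 0× and 178 in 3× glucose had an unadjusted p under 0.05 without the block. With it, 4 of the 36 genes in 0× and 1 in 3× glucose did, against 1591 and 876 of all genes.

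2-DG was also set against 0× glucose, with the same 2-DG libraries as above. Here 12 of the 36 genes passed, against 18.9% of all genes. Of these, 7 were higher, against 9.86% of all genes, and 5 lower, against 9.04%. *Cars* (0.31, SE 0.087, edgeR, adjusted p = 0.033) and *Cars2* (0.38, SE 0.088, adjusted p = 0.014), the cysteine enzymes, were both higher than in 0× glucose. *Cars2* stood at 38.5, 33.8 and 35.9 CPM in 2-DG and at 27.7, 24.97 and 30.5 CPM in 0× glucose, with no overlap. *Ears2* was lower by more than against 1× glucose, at -0.36 (SE 0.058, edgeR, adjusted p = 0.0024), and *Lars2* (-0.32) and *Tars2* (-0.17), the leucine and threonine enzymes of mitochondria, were lower as well. *Iars* (0.12) had an adjusted p of 0.089 by edgeR and of 0.021 with the passage as a block. The calls of *Kars*, *Ears2* and *Sars2* held in all 6 fits that left out a library, and the other 9 were each lost in some. *Farsa* and *Tars2* lost theirs in all 6 (edgeR, adjusted p of 0.062 to 0.18 for *Tars2*), and *Cars* and *Lars2* in 4 of 6. *Nars* kept its call only without the 2-DG library of passage 16. *Wars2* kept its call only without that library or the 0× library of passage 13. Without the 2-DG library of passage 13 the log2 fold change of *Cars* was 0.20 (adjusted p = 0.11) and that of *Sars* 0.19 instead of 0.30 (adjusted p = 0.066), and without the 0× library of passage 16 that of *Lars2* was -0.21 (adjusted p = 0.11). With the passage as a block 21 of the 36 passed, against 43.1% of all genes. Since both comparisons use the same 2-DG libraries, their calls are not independent of each other.

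Known targets of ATF4 other than the synthetases were looked at next. Of 30 genes listed as ATF4 and its targets outside the synthetases, a list written with earlier results of these data known, 20 were higher in 2-DG, 1 was lower and 9 did not pass, beside the 17.6% of all genes called, with a median log2 fold change of 0.58. *Atf4* itself stood at 149.4, 143.0 and 132.8 CPM in 1× glucose and at 199.2, 227.6 and 169.4 CPM in 2-DG, with a log2 fold change of 0.49 (SE 0.093, edgeR, adjusted p = 0.0061). *Asns*, asparagine synthetase, which makes the amino acid that *Nars* loads, stood at 125.7, 118.6 and 129.7 CPM and at 219.9, 183.0 and 186.5 CPM, a log2 fold change of 0.66 (SE 0.080, edgeR, adjusted p = 0.0006). Each of these genes had groups that did not overlap, and each changed by more than any synthetase.

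The largest changes of this list were in stress genes. *Chac1*, which degrades glutathione, had a log2 fold change of 2.91 (SE 0.73, edgeR, adjusted p = 0.022), *Trib3*, a pseudokinase, 2.58 (SE 0.40, adjusted p = 0.0021), and *Slc7a3*, a transporter of basic amino acids, 2.46 (SE 0.37, adjusted p = 0.0018). *Ddit3*, which encodes CHOP, had a log2 fold change of 0.76 (SE 0.16, adjusted p = 0.0097). *Nupr1* had 2.75 (SE 0.83, adjusted p = 0.045) but rests on very few reads, with no more than 0.130 CPM in any 1× library. The gene that was lower was *Cth*, which makes cysteine, at -0.84 (SE 0.071). Of 25 genes of this list with a promoter entry, 9 held TGATGNAA. Among the 5 synthetase genes that hold it, *Yars* and *Iars* rose, *Gars* passed with the passage as a block, and *Aars* and *Tars* had log2 fold changes of -0.04 each, with 95% intervals of -0.19 to 0.11 and -0.16 to 0.07. Of the 5 synthetase genes called higher that have a promoter entry, 2 held the element, and *Sars*, *Wars2* and *Sars2* rose without it. Whether the element went with the change was not tested.

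Of the 7 genes for the kinases and the phosphatase of eIF2α and for eIF2α itself, 2 passed, against 17.6% of all genes, or 5 with the passage as a block, against 41.3%. *Eif2ak3*, which encodes the kinase PERK of the endoplasmic reticulum, had a log2 fold change of 0.57 (SE 0.11, edgeR, adjusted p = 0.0075), and *Eif2ak1*, the heme-regulated kinase, had -0.19 (SE 0.047, adjusted p = 0.020). *Eif2ak4*, which encodes GCN2, the kinase that senses uncharged tRNA, had 0.17 (SE 0.064), with an adjusted p of 0.096 by edgeR and of 0.0017 with the passage as a block.

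Factors that work with charged tRNA on the ribosome were read from the same fit. Of 18 cytosolic translation factors 4 passed, or 8 with the passage as a block, shares near the 17.6% and 41.3% of all genes. Without the block they were the elongation factors *Eef2* (0.17) and *Eef1g* (0.16) higher and the release factor *Gspt1* (-0.27) and the initiation factor *Eif5* (-0.17) lower, and the median over the 18 was -0.05. Of 10 mitochondrial translation factors 4 passed, or 6 with the passage as a block, against the same shares of all genes, and every one of these was lower (8.51% of all genes passed as lower). The 4 were the elongation factors *Tufm* (-0.26), *Gfm1* (-0.24) and the recycling factor *Gfm2* (-0.18), and the initiation factor *Mtif2* (-0.24). The median over these 10 was -0.18. Of 12 relatives and partners of the synthetases outside the naming rule 2 passed, about the 17.6% of all genes: *Tarsl2*, another cytosolic threonine enzyme, at 0.37 (SE 0.092) and *Dtd1*, which removes D-amino acids from tRNA, at -0.38 (SE 0.10).

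**Figure D4:**
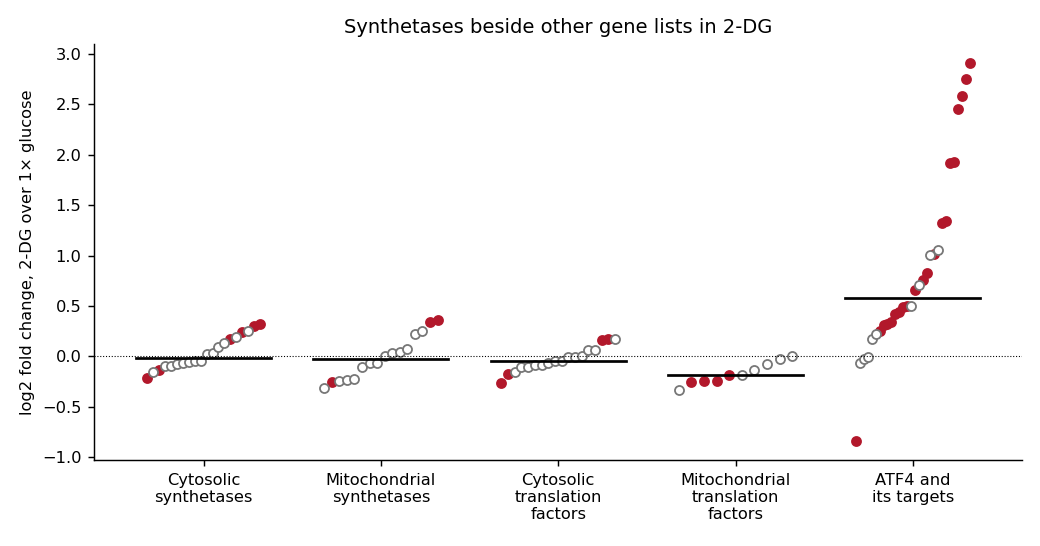
Log2 fold change in 2-DG over 1× glucose (y axis) of each gene in 5 groups, sorted within the group; red points passed edgeR's test at an adjusted p of 0.05, open points did not, and the bar is the median. The synthetases lie between -0.31 and 0.36 around medians of -0.01 and -0.03, whereas ATF4 and its targets reach 2.91 around a median of 0.58.

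Markers of other cell states were read from the same libraries. Of the 6 markers of the primitive streak and mesoderm, *T* passed as lower in 2-DG (log2 fold change -1.57, edgeR, adjusted p = 0.014), and *Tbx6*, *Msgn1* and *Cdx2* passed as lower with the passage as a block. *Meox1* (-0.0034) and *Mesp1* (0.36) passed in neither fit. The summed level of the 6 was 835 to 942 CPM in 1× glucose and 451 to 587 CPM in 2-DG, without overlap. None of the 4 pluripotency markers passed (edgeR, adjusted p of 0.11 to 0.93), though *Pou5f1*, *Nanog* and *Esrrb* passed as higher with the block, and their sums were 29.4 to 46.5 CPM and 49.3 to 63.1 CPM. Among the 4 neural markers, *Sox1* (1.84, edgeR, adjusted p = 0.018) and *Pax6* (1.29, adjusted p = 0.046) were higher. The more abundant *Sox2* (0.52) and *Nkx1-2* (-0.98) passed only with the block, in opposite directions. The neural sum overlapped, at 131 to 370 CPM and 145 to 294 CPM, and *Nkx1-2* alone made 78.9 to 238 CPM and 50.1 to 92.9 CPM. The 4 markers of feeder fibroblasts were low in all conditions (7.75 to 12.1 CPM). None of the 3 endoderm markers passed without the block. With it *Foxa2* (-1.68) and *Sox17* (-0.53), both scarce, passed as lower and *Cer1* (-1.45) did not pass. Of the 4 markers of endothelium and blood, summing to no more than 7.13 CPM in 1× glucose, none passed without the block. With it *Kdr* (-2.90) and *Cdh5* (-3.54) passed as lower and *Pecam1* (0.42) did not pass. The embryonic globin *Hbb-bh1* was at 0. In bulk RNA, fewer cells of a type and less RNA per cell cannot be told apart, and the part of these differences in the changes of the synthetases was not tested.

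The synthetases differed between ES cell passages about as often as other genes did. In the fit with condition and passage, 18 of the 36 genes differed between passages, against 46.2% of all genes. They were 7 of the 20 cytosolic and 11 of the 16 mitochondrial enzymes. Of these, 12 were lower in both later passages than in passage 13, 5 were higher in both (*Gars*, *Vars*, *Mars2*, *Sars2* and *Vars2*) and *Cars2* was mixed. *Mars2* averaged 19.6, 27.2 and 23.0 CPM in passages 13, 15 and 16 over the 4 conditions, a log2 difference of 0.47 from passage 13 to 15 (edgeR, adjusted p = 0.00016). *Fars2*, the phenylalanine enzyme, averaged 14.1, 11.5 and 10.9 CPM, a log2 difference of -0.37 from passage 13 to 16 (edgeR, adjusted p = 0.0021). For these genes the differences between passages were larger than any difference between 0×, 1× and 3× glucose. The labels show no repeat of any passage, so a passage cannot be told apart from the culture and handling of its libraries. The p-values between passages treat the 4 conditions of a passage as its replicates, which they are not in the strict sense.

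**Figure D5:**
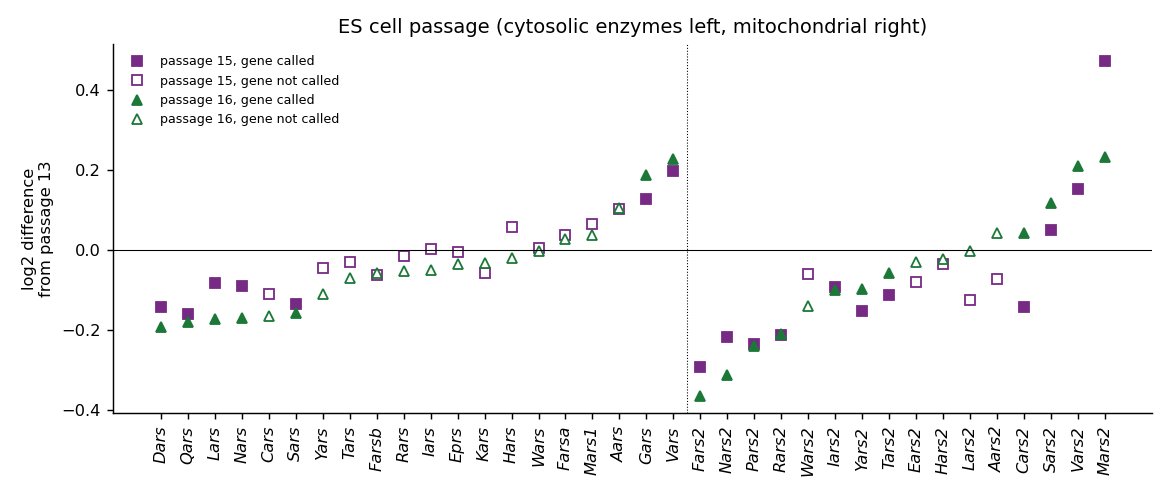
Log2 difference from ES cell passage 13 (y axis) of each synthetase gene in passage 15 (squares) and passage 16 (triangles), over the 12 libraries and adjusted for condition. Filled symbols are the 18 genes that differed between passages (adjusted p under 0.05), 7 cytosolic on the left and 11 mitochondrial on the right; *Mars2* in passage 15 is highest at 0.47 and *Fars2* in passage 16 lowest at -0.37.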

How the data were processed

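PolyA RNA of 12 gastruloid libraries was sequenced from a directional library kit. Per the labels and the study's methods, the authors trimmed the reads with Trim Galore, aligned them to mm10 with HISAT2, removed duplicates with Picard and deposited estimated counts per RefSeq transcript from StringTie, which divides reads between transcripts. Versions, annotation and strand setting are not given in the sources used here. The deposited expected counts were all whole numbers, so rounding changed nothing. Tables of the authors' DESeq2 fold changes and p-values were not used.

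Counts of the 120312 transcripts were added per gene symbol with the RefSeq table of GRCm38.p6, which named all of them. Genes were kept by filterByExpr, which left 16966 genes and all 36 synthetases described. Another gene found by the naming rule is not reported here and is in no count of synthetases. The 4 groups, taken from the sample labels, entered a joint fit (edgeR 4.0.16 under R 4.3.3; TMM, glmQLFit, glmQLFTest, two-sided), with Benjamini-Hochberg adjustment over all genes tested and a threshold of 0.05. CPM use TMM library sizes. Levels per kb use the length of the most abundant transcript that GENCODE M21 matches, or the RefSeq span where that is shorter. The labels mark a shared ES cell passage in each group, and libraries of a passage deviated together (correlations across genes of 0.0963 to 0.623 in 18 combinations of libraries of 1 passage, and -0.44 to 0.191 in 36 of different passages), so a fit with the passage as replicate block was run beside the main one. Depth was 38439471 to 45956080 counts per library in 1× glucose and 33666332 to 37496932 in 2-DG. It was 31902471 to 34266196 in 0× and 33336139 to 40744645 in 3× glucose. Every 1× library was thus deeper than every 2-DG and every 0× library. Depth sets the counting error, and whether it had any other part in the differences was not tested.

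The members and gene lists were chosen with earlier results of these data known, so the lists are descriptions and were given no test of their own. Named in full were up to 8 cytosolic and up to 4 mitochondrial genes called in 2-DG against 1× glucose with the largest changes, *Gars*, *Kars*, and the 2 with the smallest change in each compartment. From each list the up to 4 called genes with the largest change were named, with *Atf4*, *Asns*, *Trib3*, *Ddit3*, *Chac1* and the scaffolds; further genes were named after their values were seen. The fit without the block was tested on simulated counts. Of 200 genes changed by 0.5 on the log2 scale it recovered 40%, and of 200 changed by 1.0 it recovered 88%. The calls that were false made up 4.76% and 5.38%. The simulated counts had no differences shared by a passage, and far fewer genes changed in them than the 2990 called in the data. The recovered and false shares therefore need not hold for the synthetases. Every synthetase changed by less than 0.5, so a gene that did not pass may still have changed. Alternatives were the replicate block, median-of-ratios factors, no filter on low counts, DESeq2 1.42.0, the most abundant transcript alone, only the groups compared, and leaving out each library in turn. For the comparisons of conditions, all but the first were run without the block.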

Additional observations from a re-analysis of the deposited data

How the results depend on the processing

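The count of synthetases called depended on the settings. In 2-DG against 1× glucose the 9 calls (6 cytosolic, 3 mitochondrial) became 21 (11 and 10) in the paired fit with the replicate block, 5 (2 cytosolic) with no filter on low counts, 1 (1 and 0) with the most abundant transcript alone, 5 (2 cytosolic) with only the groups compared and 12 with DESeq2. Leaving out 1 library gave 5 to 9 calls, 2 to 6 cytosolic and 2 to 3 mitochondrial, with 5 without the 1× library of passage 15 or the 2-DG library of passage 13 or 15. In 2-DG against 0× glucose the 12 calls (6 and 6) became 21 (11 and 10) with the block, 7 (3 mitochondrial) with no filter, 2 (1 and 1) with the most abundant transcript and 5 (2 and 3) with only the groups compared, and 3 to 9 (1 to 5 and 2 to 5) when 1 library was left out, with 3 and 6 without the 2-DG libraries of passages 13 and 15 and 5 and 4 without the 0× libraries of passages 15 and 16. In 0× and 3× glucose no alternative called a synthetase.

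Over all genes, the 2990 calls of 2-DG against 1× glucose became 7001 with the block and 653 with the most abundant transcript. They became 1896 with only the groups compared and 1734 to 2352 when 1 library was left out. With no filter they became 2376 of 26382 genes tested, and with DESeq2 3686 of 16966. The 3207 calls against 0× glucose became 7305 with the block, 775 with the most abundant transcript and 2348 with only the groups compared. They became 2051 to 2619 when 1 library was left out, 2583 with no filter and 3853 with DESeq2.

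Signs turned for genes near 0, but not only for these. With the most abundant transcript alone they also turned for genes that had passed, *Sars2* in both comparisons and *Farsa* against 0× glucose. With the most abundant transcript alone, the log2 fold change against 1× glucose was -0.35 for *Mars1*, -0.29 for *Eprs* and -0.28 for *Sars2*, and against 0× glucose 0.32 for *Farsa*, -0.18 for *Mars1*, -0.25 for *Sars2* and -0.17 for *Hars2*. With no filter, *Hars2* had -0.0089 against 1× glucose. Leaving out 1 library gave, against 1× glucose, -0.014 to 0.066 for *Mars1*, -0.035 to 0.028 for *Hars2* and -0.12 to 0.17 for *Mars2*, and against 0× glucose -0.035 to 0.021 for *Eprs* and -0.050 to 0.21 for *Mars2*. The cause was not tested. For the named genes, 128 of 168 values under the other alternatives and 120 of 168 with a library left out kept their direction and side of the threshold.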
